A study of Mus musculus with 6 samples.

Results

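The genes for the contractile proteins of muscle were described in the gastrocnemius, a mainly fast calf muscle, of mice with C26 tumors and of control mice. The set held 40 genes, chosen by name, for myosin heavy and light chains, troponins, tropomyosins, actins, alpha-actinins, myosin binding proteins and myosin light chain kinases. All 40 were among the 13363 genes of the deposited values. They fell into 11 fast isoforms, 12 slow or cardiac isoforms, 5 developmental isoforms, 6 proteins or kinases that fast and slow fibers share or whose fiber type is less clear, and 6 isoforms used mainly by non-muscle or smooth muscle cells. This sorting came from general knowledge of the isoforms and used no value of these samples. The question was whether wasted muscle carries a different mix of fast, slow and developmental isoforms.

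RNA of the whole gastrocnemius was sequenced. The C26 group was 3 muscles of male Balb/c mice inoculated under the skin with 500000 cells of C26, a mouse colon adenocarcinoma line whose tumors bring weight loss and muscle wasting. The control group was 3 muscles of male Balb/c mice without a tumor. Mice of both groups had been bought at 6 weeks of age, and no genetic alteration or drug was given for either group. The tumor came from 1 cell line, and the sequenced tissue was a frozen muscle with all its cells, so the values mix muscle fibers with vessels, fat, connective tissue and immune cells. In such bulk samples fewer cells of a type and less RNA per cell cannot be told apart. Whether each sample came from a different mouse is not stated sample by sample, and p-values measure only the spread between these samples.

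In a sarcomere, the repeating unit of a muscle fiber, thick filaments of myosin pull on thin filaments of actin. Each myosin heavy chain carries an essential and a regulatory light chain, and calcium switches the thin filament on through the troponin complex and tropomyosin. Fast and slow fibers build these parts from different genes. Myh4, Myh1 and Myh2 encode the heavy chains of type IIB, IIX and IIA fast fibers, and Myh7 encodes that of slow type I fibers. Embryonic and neonatal isoforms such as Myh3 and Myh8 are made before birth and again when fibers regenerate.

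Levels are given in FPKM, fragments per kilobase of transcript and per unit of sequencing depth, which can be compared between genes of 1 sample. A fold change is the limma estimate on the log2(TPM + 1) scale after TMM scaling, C26 minus control, with its standard error (SE) and a p-value with Benjamini-Hochberg adjustment across the 13363 genes. A gene was called at an adjusted p under 0.05. The summed FPKM were 531061 to 585169 in C26 against 626992 to 688300 in control muscles, so ratios of FPKM and fitted folds are not on the same scale. All genes had a median log2 fold change of -0.05. Markers of skeletal muscle fibers such as Ckm and Des were abundant in every sample, with 20050 to 33910 FPKM for 9 genes together. Some samples stood apart. C26 replicate 3 had 4906 FPKM of Mb, the oxygen store of oxidative fibers, against 74.0 to 1569 elsewhere. C26 replicate 2 had 247 FPKM of the macrophage gene Cd68, against 1.75 to 34.9 elsewhere. Control replicate 3 had 499 FPKM of 7 immune markers together, of 10 looked for, against 37.1 and 53.3 in the other controls.

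The 40 genes did not all move in the same direction. Limma called 3 of the 40 higher in C26 muscle, 7.5% beside 19.4% of all genes, and 11 lower, 27.5% beside 14.5% of all genes. Actn2 rose, with Myh14 and Mylk2. Mybph, Mylk4, Actc1, Mylpf, Tpm1, Myl1, Myl12b, Myl9, Tnnc2, Tpm4 and Myl6 fell. With a fold change above 4 required as well, 2 genes rose (1.76% of all genes did) and 3 fell (1.73% of all genes did). All 3 C26 muscles lay above all controls for 3 genes, where 18.7% of all genes did so, and below all controls for 17, where 34.6% did. The median log2 fold change of the 40 was -0.30.

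By class, 4 of the 11 fast isoforms fell and 0 rose (0 also at an unadjusted p under 0.05), with a median of -0.29. Of the 12 slow or cardiac isoforms 0 were called in either direction at an adjusted p, with a median of -0.47, and 1 of them, Myl6b, had an unadjusted p under 0.05. The slow median was 0.35 without C26 replicate 2 and -0.98 without C26 replicate 3. Among the 5 developmental isoforms 1 fell (median 0.06, and -0.09 and -0.21 without C26 replicates 1 and 3). The 6 shared proteins and kinases split into 2 that rose and 2 that fell (median 0.01, and -0.48 to 0.29 without 1 muscle), and the 6 non-muscle isoforms into 1 that rose and 4 that fell (median -1.08). The count of lower calls among the 40 was smallest without C26 replicate 1 or control replicate 1, where the fewest of all genes were called lower too. Without either of them 4 of the 40 genes were called lower, beside 5.01% of all genes without the C26 muscle and 5.43% without the control. Without either of them 2 fast and 0 non-muscle isoforms were called lower. Without C26 replicate 2, 7 of the 40 were, beside 7.07% of all genes. Myl1, Tpm1, Actc1, Mybph, Actn2 and Myh14 were called in all 6 fits that left out 1 muscle. The 11 genes that fell had a median transcript length of 1473 bases, the 3 that rose 3013 and the rest 2056. With the fold changes corrected for length and GC content, 10 genes were lower and 3 higher, beside 15.37% and 19.05% of all genes.

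**Figure D1:**
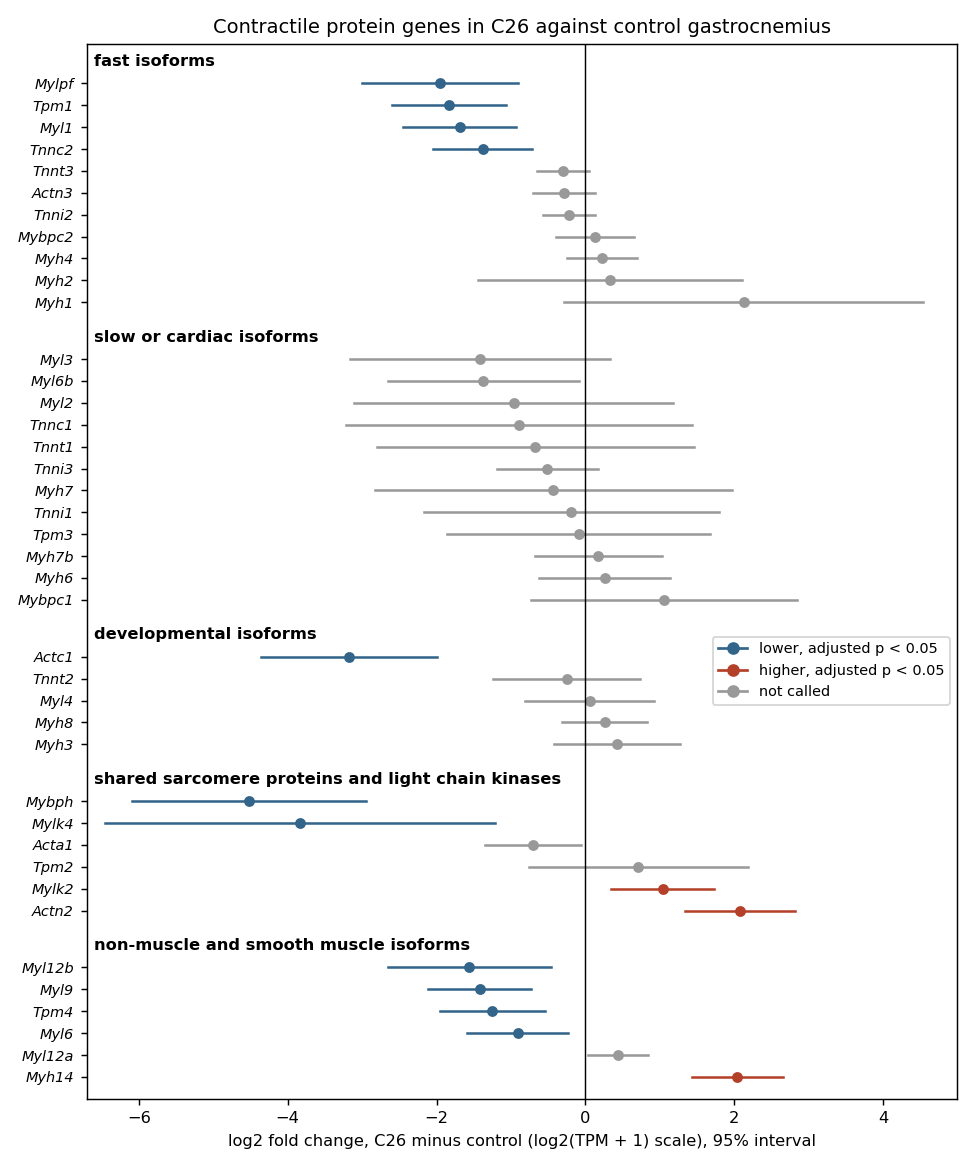
Log2 fold change (C26 minus control, log2(TPM + 1) scale) of the 40 contractile protein genes by class, as points with 95% intervals from limma. Blue points are the 11 genes called lower and red points the 3 called higher, and the intervals of all slow isoforms but Myl6b include 0.

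No fast heavy chain gene was called. Myh4, the most abundant heavy chain gene, had 10905, 8824 and 8751 FPKM in C26 muscles and 8812, 10809 and 8672 in controls. The groups overlapped almost completely, with means of 9493 ± 1223 and 9431 ± 1195 (SD, n = 3). Its log2 fold change was 0.23 (SE 0.20, 95% interval -0.24 to 0.70, adjusted p = 0.396). Under quantile normalization Myh4 was called higher instead, at 0.98 on the log2 scale (adjusted p = 0.00966), so its call depended on the scaling. Summed over the 8 sarcomeric heavy chain genes, the C26 muscles had 11304, 9157 and 11719 FPKM, and controls 9065, 11361 and 8885.

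Myh1 stood out in 1 muscle. It had 299, 254 and 2555 FPKM in C26 and 92.8, 331 and 118 in control muscles, and its log2 fold change was 2.13 (SE 1.01, adjusted p = 0.143). C26 replicate 3 was far above the other samples, and the remaining C26 muscles lay within the control range. Myh2 had 84.5, 75.1 and 379 FPKM against 113, 214 and 77.3. Here too C26 replicate 3 was highest, and without it the log2 fold change of Myh2 turned from 0.34 to -0.45. As a share of the summed heavy chains, Myh4 took 96.5%, 96.4% and 74.7% in C26 and 97.2%, 95.1% and 97.6% in control muscles. Myh1 took 2.65%, 2.78% and 21.8% against 1.02%, 2.91% and 1.32%. An exact two-sided permutation test of the difference in the mean share gave p = 0.5 for Myh4 and p = 0.3 for Myh1 (adjusted over 8 genes 0.96 for both), where 3 samples against 3 allow no p under 0.1. Myh1, Myh2, Myh4, Myh3 and Myh8 all lie on chromosome 11 and are close copies. Of all windows of 50 bases, the read length, 26.7% of those in Myh1, 26.9% in Myh2 and 18.9% in Myh4 occur in another gene, so the split of reads among them is less certain than their sum.

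Slow and developmental heavy chains were rare in both groups. Myh7 had 14.2, 2.46 and 28.9 FPKM in C26 and 45.1, 5.73 and 16.8 in control muscles. The values of the groups interleaved (log2 fold change -0.43, SE 1.0, adjusted p = 0.756). The cardiac heavy chain Myh6 had 0.30, 0.08 and 0.98 FPKM against 0.54, 0.27 and 0.07. Myh7b, a slow-type heavy chain gene that muscle hardly translates, had 0.30, 0.07 and 1.0 against 0.26, 0.51 and 0.23. Neither was called, and both were highest in C26 replicate 3. Embryonic Myh3 had 0.13, 0.17 and 1.06 FPKM in C26 and 0.09, 0.21 and 0.19 in control muscles (adjusted p = 0.372). Neonatal Myh8 had 0.45, 0.67 and 0.85 against 0.36, 0.85 and 0.39 (adjusted p = 0.424). In every sample both stayed near or below 1 FPKM, beside at least 8672 for Myh4. At such levels the values are near the low end of what the table resolves, and the number of reads behind them is unknown.

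Both fast light chain genes fell. Myl1, the fast essential light chain, had 5092, 3440.0 and 7618 FPKM in C26 and 20462, 16705 and 20434 in control muscles. Every C26 muscle lay far below every control (log2 fold change -1.69, SE 0.32, adjusted p = 0.0111). Mylpf, the fast regulatory light chain, had 4535, 2458 and 8041 FPKM against 21134, 17622 and 21915. It fell, again with no overlap (log2 fold change -1.95, SE 0.44, adjusted p = 0.0179), and lost its call without C26 replicate 1 or without control replicate 1. C26 replicate 2 was lowest and C26 replicate 3 highest of the C26 muscles for both genes. Within a muscle, Myl1 and Mylpf together had 0.853, 0.644 and 1.34 times the FPKM of the fast heavy chains Myh1, Myh2 and Myh4 in C26, and 4.61, 3.02 and 4.78 times in control muscles. The exact two-sided permutation test gave p = 0.1, the smallest these group sizes allow. This ratio was picked after the values were seen, so its p-value is a description and no separate evidence of a fall. A ratio within a muscle shows unequal change of the 2 sets, and it is the same under any scaling by 1 factor per sample, though not under quantile normalization, where Myl1 was at -0.97 on the log2 scale (adjusted p = 0.0288). Of the windows of Myl1, 23.4% also occur in the pseudogene Mylf-ps, and of Mylpf 0%.

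Slow light chains were not called. Myl3, the slow and ventricular essential light chain, had 16.7, 4.02 and 36.2 FPKM in C26 and 44.1, 36.1 and 52.4 in control muscles (log2 fold change -1.42, SE 0.73, adjusted p = 0.172). The highest C26 muscle just passed the lowest control. Myl2, its regulatory partner, had 44.5, 13.8 and 168 FPKM against 173, 62.3 and 114 (log2 fold change -0.96, SE 0.89, adjusted p = 0.426). Myl6b, a light chain of slow fibers, had 1.35 to 3.62 FPKM in C26 against 4.68 to 16.9 in control muscles, without overlap and without a call (log2 fold change -1.37, adjusted p = 0.0909). With C26 replicate 3 and control replicate 3 both left out, Myl3 (-2.06, adjusted p = 0.0402) and Myl6b (-2.06, adjusted p = 0.0217) were called lower. Myl4, the embryonic and atrial essential light chain, had 3.68 to 9.67 FPKM in C26 against 6.72 to 8.77 in control muscles (log2 fold change 0.06, SE 0.36, adjusted p = 0.908).

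**Figure D2:**
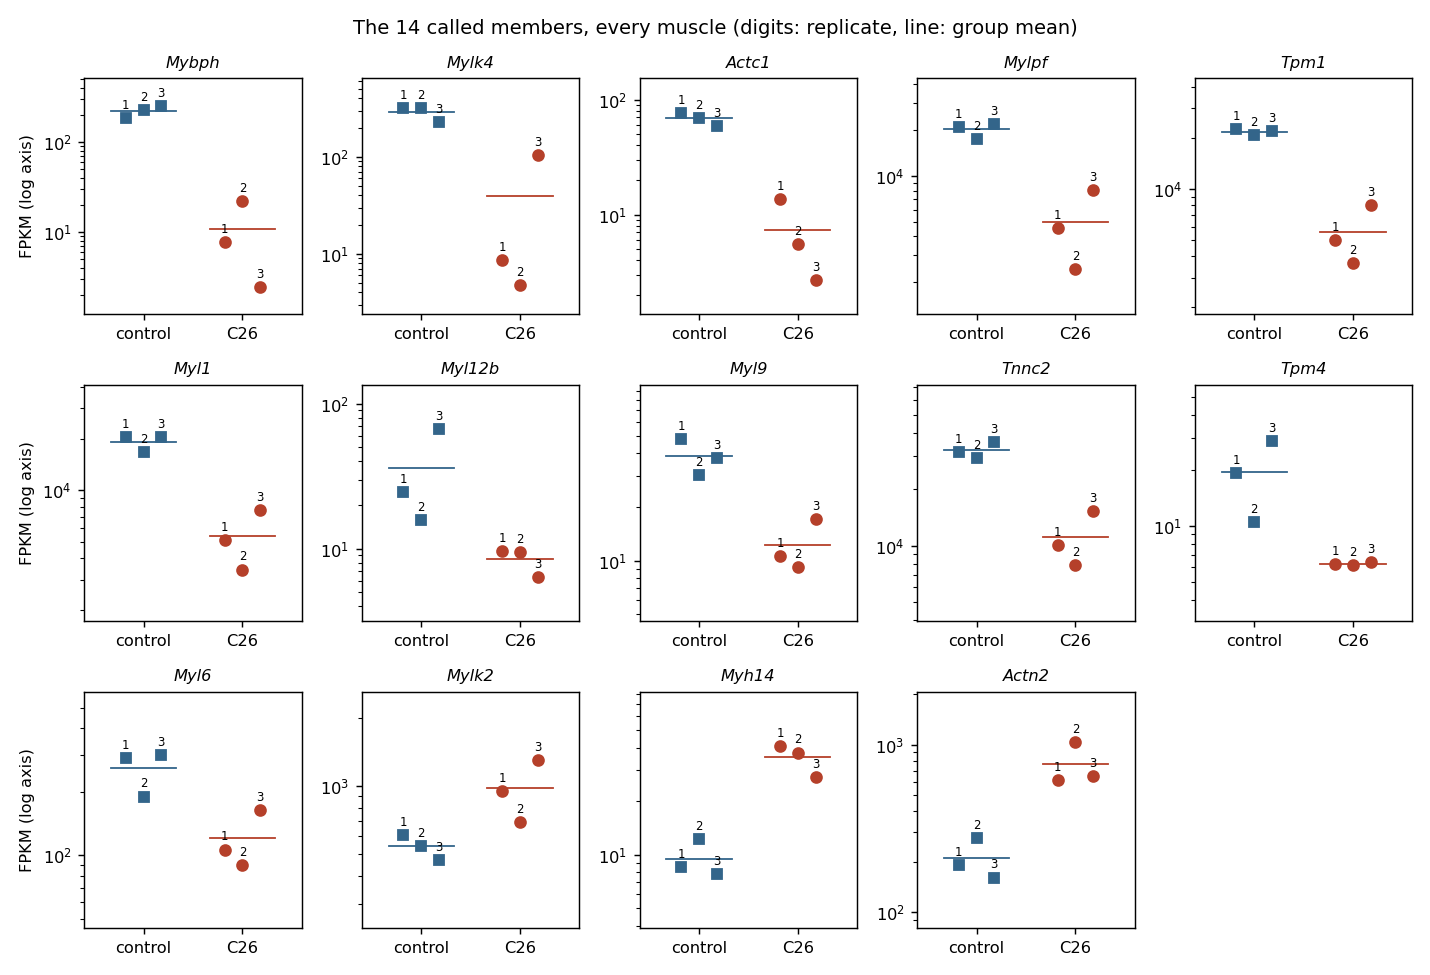
FPKM on a log axis of the 14 called genes in every muscle, control as squares and C26 as circles, with the replicate number above each point and the group mean as a line. The 3 C26 muscles lie below all controls for 11 genes and above them for Mylk2, Myh14 and Actn2.

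Of the 3 fast troponin genes 1 was called. Troponin C binds calcium, troponin I inhibits the thin filament and troponin T ties the complex to tropomyosin. Fast troponin C, Tnnc2, had 10078, 7926 and 15279.9 FPKM in C26 and 31803, 29357 and 35918 in control muscles. It fell with no overlap (log2 fold change -1.38, SE 0.28, adjusted p = 0.0136), but with an intensity trend in the prior variance its adjusted p was 0.0719, and the call was lost without C26 replicate 1 (0.0567) or control replicate 1 (0.0513). Fast troponin I, Tnni2, had 12998, 12402 and 14373 FPKM against 17839, 16274 and 20015, and was not called (-0.23, SE 0.15, adjusted p = 0.261). Fast troponin T, Tnnt3, had 17604, 16658 and 19004 FPKM against 25572, 24806 and 25946 (-0.30, SE 0.15, adjusted p = 0.146). In FPKM all 3 genes were lower in every C26 muscle than in every control. The direction for Tnni2 and Tnnt3 turned on the scaling. In FPKM as deposited both were called lower (Tnni2 -0.44, adjusted p = 0.0456, and Tnnt3 -0.52, adjusted p = 0.0184), and under quantile normalization Tnni2 was called higher (0.71, adjusted p = 0.0168) and Tnnt3 was at 0.19.

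Ratios within a muscle are the same under any scaling by 1 factor per sample, which quantile normalization is not. Those of the troponins were also picked after the values were seen, so their p-values are descriptions. Tnnc2 had 0.775, 0.639 and 1.06 times the FPKM of Tnni2 in C26, against 1.78, 1.80 and 1.80 in control muscles (exact permutation test, p = 0.1, the smallest possible). The 3 controls were nearly equal and all C26 muscles lay lower. Tnni2 had 0.738, 0.745 and 0.756 times the FPKM of Tnnt3 in C26 and 0.698, 0.656 and 0.771 in control muscles (p = 0.4, exact permutation test). None of these 3 genes has a window of 50 bases that occurs in another gene.

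No slow troponin gene was called. Tnnt1 had 27.6, 5.18 and 44.0 FPKM in C26 and 78.6, 14.9 and 37.0 in control muscles (log2 fold change -0.68, SE 0.89, adjusted p = 0.573). Tnni1 had 11.5, 2.85 and 19.5 against 27.7, 4.37 and 12.9 (-0.19, SE 0.83, adjusted p = 0.873). Tnnc1, the slow and cardiac troponin C, had 19.8, 4.97 and 54.8 against 95.7, 15.0 and 41.1 (-0.89, SE 0.97, adjusted p = 0.495). In all of them C26 replicate 2 was lowest and control replicate 1 highest. Cardiac troponin I, Tnni3, had 0.05 to 0.37 FPKM in C26 against 0.39 to 1.28 in control muscles (-0.51, adjusted p = 0.198). Tnnt2, the troponin T of heart and of embryonic muscle, had 0.77 to 3.03 FPKM against 1.81 to 3.48 (-0.25, adjusted p = 0.652).

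Tropomyosin lies along the thin filament. Tpm1, whose muscle form is the main fast tropomyosin, had 5019, 3646 and 8092 FPKM in C26 and 22471, 20972 and 22116 in control muscles. It fell without overlap (log2 fold change -1.83, SE 0.32, adjusted p = 0.00919), and by less under quantile normalization (-1.10, adjusted p = 0.0143). Tpm3, whose muscle form is slow, had 56.6, 16.1 and 77.2 FPKM against 86.1, 20.5 and 75.9 (-0.09, SE 0.73, adjusted p = 0.932). Its values interleaved, and 62.4% of its windows of 50 bases also occur in another gene, mainly Tpm3-rs7, so its level is uncertain. Tpm2, the beta form found in fast and slow fibers, had 749 to 2887 FPKM in C26 against 620 to 1186 in control muscles (0.71, SE 0.61, adjusted p = 0.389). Its highest value was again in C26 replicate 3, and with that muscle and control replicate 3 left out the log2 fold change was -0.23.

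Skeletal actin, Acta1, had 10781 to 19513 FPKM in C26 against 25506 to 27269 in control muscles. The groups did not overlap, and the gene was not called (log2 fold change -0.70, SE 0.27, adjusted p = 0.0842). In FPKM as deposited (-0.92, adjusted p = 0.0289), and without C26 replicate 3 and control replicate 3 (-1.05, adjusted p = 0.00619), it was called lower. Tpm1 had 0.383, 0.338 and 0.415 times the FPKM of Acta1 in C26 and 0.824, 0.785 and 0.867 times in control muscles. The tropomyosin gene was lower relative to the actin gene in every C26 muscle (exact permutation test, p = 0.1). This ratio too was picked after the values were seen.

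**Figure D3:**
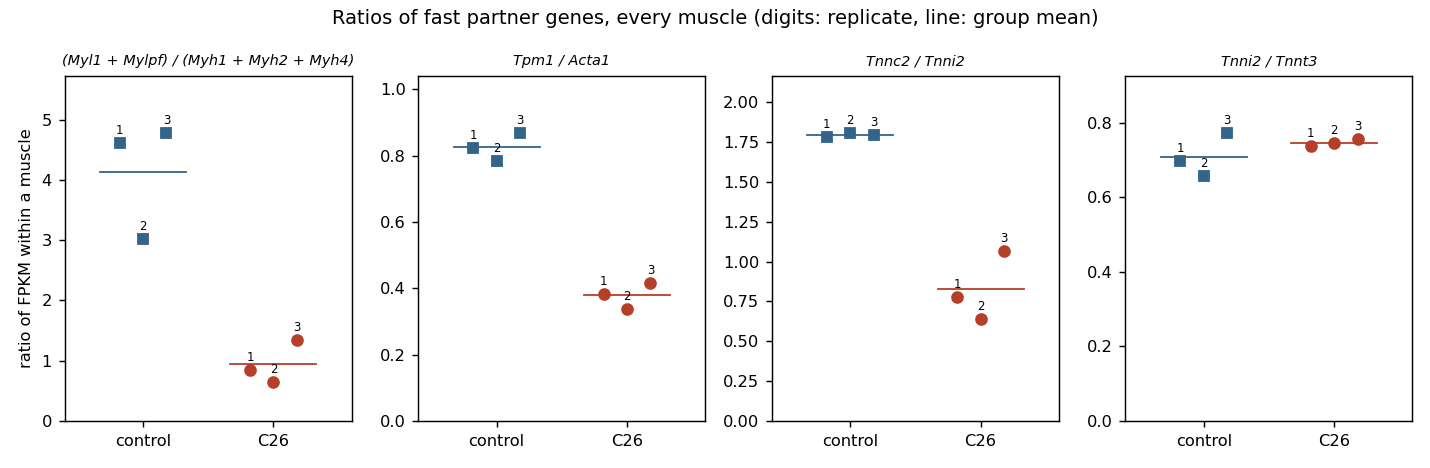
Ratios of FPKM within each muscle, on linear axes from 0, for fast light over fast heavy chains, Tpm1 over Acta1, Tnnc2 over Tnni2 and Tnni2 over Tnnt3, with the replicate number above each point and group means as lines. C26 muscles lie below all controls in the first 3 ratios (light over heavy 0.644 to 1.34 against 3.02 to 4.78), and the groups overlap for Tnni2 over Tnnt3. The ratios were picked after the values were seen.

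Cardiac actin, Actc1, is the actin of the embryonic muscle and of the heart, and adult skeletal fibers keep a little of it. It had 13.6, 5.53 and 2.71 FPKM in C26 and 76.5, 69.9 and 59.5 in control muscles. All C26 muscles lay far below the controls (log2 fold change -3.18, SE 0.49, adjusted p = 0.00698). C26 replicate 3, the muscle with most Myh1, had the least Actc1. No window of 50 bases of Actc1 occurs in another gene. Acta1 had 964, 1949 and 7200.0 times the FPKM of Actc1 in C26 and 356, 382 and 429 times in control muscles. The exact permutation test put this ratio, also picked after the values were seen, at p = 0.1. The 250 bases upstream of the Actc1 start (RefSeq, GRCm38.p6, minus strand, chr2:114052876-114053125) are shown because Actc1 had the largest fall among the actin genes. The capitals mark 1 CArG box, the element that serum response factor binds.
Actc1: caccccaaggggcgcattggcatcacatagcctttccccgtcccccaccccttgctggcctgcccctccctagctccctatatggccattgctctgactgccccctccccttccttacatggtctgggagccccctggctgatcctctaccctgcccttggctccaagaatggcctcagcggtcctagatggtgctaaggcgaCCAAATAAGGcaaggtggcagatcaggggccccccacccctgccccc

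A CArG box was found on either strand of the upstream 250 bases in 1.5% of 32851 mouse promoters and in 6 of the 42 promoters that RefSeq gives for 36 of the contractile protein genes, some of which have a second start. Actn3, Mylk2, Tnni2 and Tnnt3 had no promoter in the table. E-boxes, with the letters CANNTG, were found in 66.2% of all promoters and in 34 of the 42. A MEF2 site was found in 2.9% and in 4 of the 42, CATTCC (MCAT) in 12.6% and in 12, TATAAA in 12.4% and in 9, and GTAAACA, the FOXO core, in 3.2% and in 0. Among the 12 promoters of the 11 genes that fell, 3 held a CArG box, 1 a MEF2 site, 3 an MCAT and 7 an E-box. The CArG box and the MEF2 site can overlap each other, and an E-box reads CANNTG on both strands. A match describes letters and does not show that a factor bound there.

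Alpha-actinin ties thin filaments together at the Z-disc, the border of the sarcomere. Actn3 is made mainly in fast fibers and Actn2 in all fibers. Actn2 had 617, 1033 and 649 FPKM in C26 and 191, 277 and 161 in control muscles. It rose without overlap (log2 fold change 2.08, SE 0.31, adjusted p = 0.00638). Actn3 had 2236, 1821 and 1691 FPKM against 2675, 2894 and 2562. No C26 muscle reached the controls, and the gene was not called (-0.29, SE 0.17, adjusted p = 0.226), though it was in FPKM as deposited (-0.51, adjusted p = 0.0410). Actn2 stood at 27.6%, 56.8% and 38.4% of the FPKM of Actn3 in C26 and at 7.14%, 9.57% and 6.29% in control muscles. The 2 genes share 2 windows of 50 bases, 0.1% of either, so the reads can be told apart.

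The 250 bases upstream of the Actn2 start (RefSeq, GRCm38.p6, minus strand, chr13:12340733-12340982), shown as those of the gene with the largest fold change among the 3 called higher, hold 3 E-boxes in capitals and neither a CArG box nor a MEF2 site.
Actn2: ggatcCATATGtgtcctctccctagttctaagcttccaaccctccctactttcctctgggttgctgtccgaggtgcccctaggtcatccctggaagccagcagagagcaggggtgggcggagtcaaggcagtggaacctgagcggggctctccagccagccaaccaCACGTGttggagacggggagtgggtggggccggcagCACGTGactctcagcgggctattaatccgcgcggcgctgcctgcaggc

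Myosin binding proteins sit on the thick filament. Fast Mybpc2 had 1853, 1496 and 1266 FPKM in C26 and 1569.8, 1880.4 and 1415 in control muscles (log2 fold change 0.13, SE 0.22, adjusted p = 0.654). The groups overlapped. Slow Mybpc1, which fast fibers also make in part, had 108, 99.6 and 556 FPKM against 122, 135 and 62.1 (1.06, SE 0.74, adjusted p = 0.298). C26 replicate 3 alone was above the controls, at 43.9% of the level of Mybpc2, against 4.39% to 7.77% in the other muscles. With it and control replicate 3 left out the log2 fold change of Mybpc1 was -0.18. Mybph, myosin binding protein H, a smaller relative found mostly in fast fibers, had 7.83, 22.3 and 2.45 FPKM in C26 and 186, 229 and 255 in control muscles. It fell most of the 40 genes, by a log2 change of -4.52 (SE 0.65, adjusted p = 0.00599), with no overlap. Without C26 replicate 3 Mylk4 fell more, by -5.18 against -3.82 for Mybph.

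Skeletal muscle has its own kinases for the regulatory light chain. Mylk2, the main skeletal light chain kinase, had 949.9, 694 and 1299 FPKM in C26 and 608, 541 and 471 in control muscles. It rose without overlap (log2 fold change 1.04, SE 0.29, adjusted p = 0.0342), but with the replicate number as a block its adjusted p was 0.0834, and under quantile normalization 0.124. Mylk4, a related kinase gene of heart and skeletal muscle, had 8.58, 4.76 and 105 FPKM against 319, 322 and 227. It fell without overlap (-3.83, SE 1.09, adjusted p = 0.0373), and C26 replicate 3 lay well above the other C26 muscles. Mylk4 kept its call 1 time and Mylk2 2 times when each of the 6 muscles was left out in turn, so both calls were easily lost. The block gave Mylk4 an adjusted p of 0.0670.

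The upstream 250 bases of Mybph (RefSeq, GRCm38.p6, plus strand, chr1:134193198-134193447) and of Mylk4 (minus strand, chr13:32783965-32784214) are shown as those of the 2 genes with the largest falls. Capitals mark E-boxes, 1 in Mybph and 3 in Mylk4, and in Mylk4 also 1 MEF2 site, the longer run of capitals.
Mybph: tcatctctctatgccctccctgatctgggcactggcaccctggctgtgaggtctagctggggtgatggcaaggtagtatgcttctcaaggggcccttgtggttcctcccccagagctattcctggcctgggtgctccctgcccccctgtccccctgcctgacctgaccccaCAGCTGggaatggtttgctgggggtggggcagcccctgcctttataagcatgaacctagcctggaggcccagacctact
Mylk4: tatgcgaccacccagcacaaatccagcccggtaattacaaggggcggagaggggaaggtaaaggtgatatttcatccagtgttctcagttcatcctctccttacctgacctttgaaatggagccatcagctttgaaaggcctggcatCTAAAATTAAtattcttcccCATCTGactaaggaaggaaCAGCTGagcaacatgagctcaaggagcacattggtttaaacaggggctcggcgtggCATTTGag

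Slow to fast ratios were set up for 9 pairs of partners, from the heavy chain to alpha-actinin. In the alpha-actinin pair Actn2, made in all fibers, took the slow place, so that ratio does not set a slow against a fast isoform. The log2 ratio was higher in every C26 muscle than in every control for 2 of them. Tpm3 over Tpm1 differed by 1.74, with means of -7.00 ± 0.72 in C26 and -8.74 ± 1.10 in control muscles (SD, n = 3, exact permutation test, p = 0.1, adjusted over 9 pairs 0.45). Actn2 over Actn3 differed by 2.38, with means of -1.35 ± 0.52 and -3.73 ± 0.31 (p = 0.1 by the same exact test, adjusted 0.45). No pair could pass with 3 samples a group. The 2 pairs differed in which partner was called. Tpm3 was not called while Tpm1 fell, and Actn2 rose while Actn3 was not called. The other 7 pairs overlapped, with differences of -0.84 for the heavy chains, -0.41 for troponin T, 0.01 for troponin I, 0.20 for the essential light chain, 0.44 for troponin C, 0.93 for myosin binding protein C and 0.97 for the regulatory light chain. Slow Myh7 was 0.125%, 0.0269% and 0.248% of the fast heavy chains in C26 and 0.5%, 0.0505% and 0.189% in control muscles, and the groups overlapped.

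**Figure D4:**
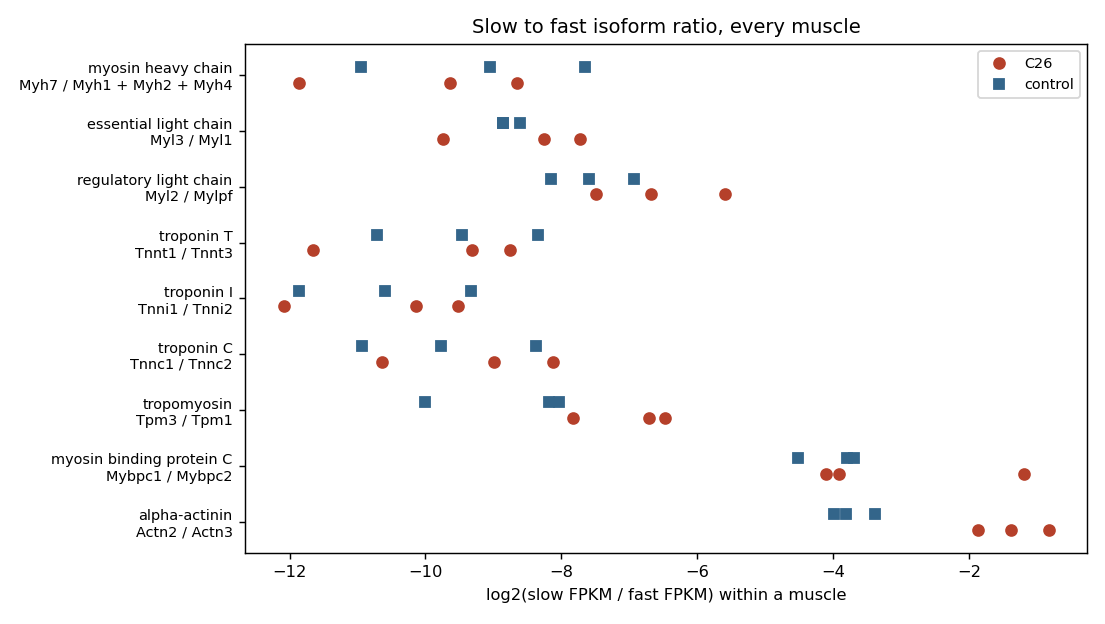
Log2 ratio of slow to fast FPKM within each muscle for 9 pairs of partner genes, C26 as circles and control as squares. In the alpha-actinin pair the slow place is taken by Actn2, which all fibers make. The groups separate for tropomyosin and alpha-actinin and overlap for the other 7 pairs.

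Of the 12 slow or cardiac isoforms, 5 shared an order of the muscles that ran across the groups. For Myh7, Tnnt1, Tnni1, Tnnc1 and Tpm3 the order of FPKM from lowest to highest was the same: C26 replicate 2, control replicate 2, C26 replicate 1, control replicate 3, C26 replicate 3 and control replicate 1. C26 replicate 2 was the lowest for 9 of the 12 and control replicate 1 the highest for 7. The others did not follow that order: Myh6, Myh7b and Mybpc1 were highest in C26 replicate 3, Myl3 and Tnni3 in control replicate 3, and Myh6 and Mybpc1 were lowest in control replicate 3. Among the 5 genes with the shared order, the highest muscle had 5.4 times the lowest level for Tpm3 and 19.3 times for Tnnc1. The 95% interval of the log2 fold change of Myh7 ran from -2.83 to 1.98. The genes Myh1, Myh2, Mybpc1 and Tpm2 had another pattern and were highest in C26 replicate 3.

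**Figure D5:**
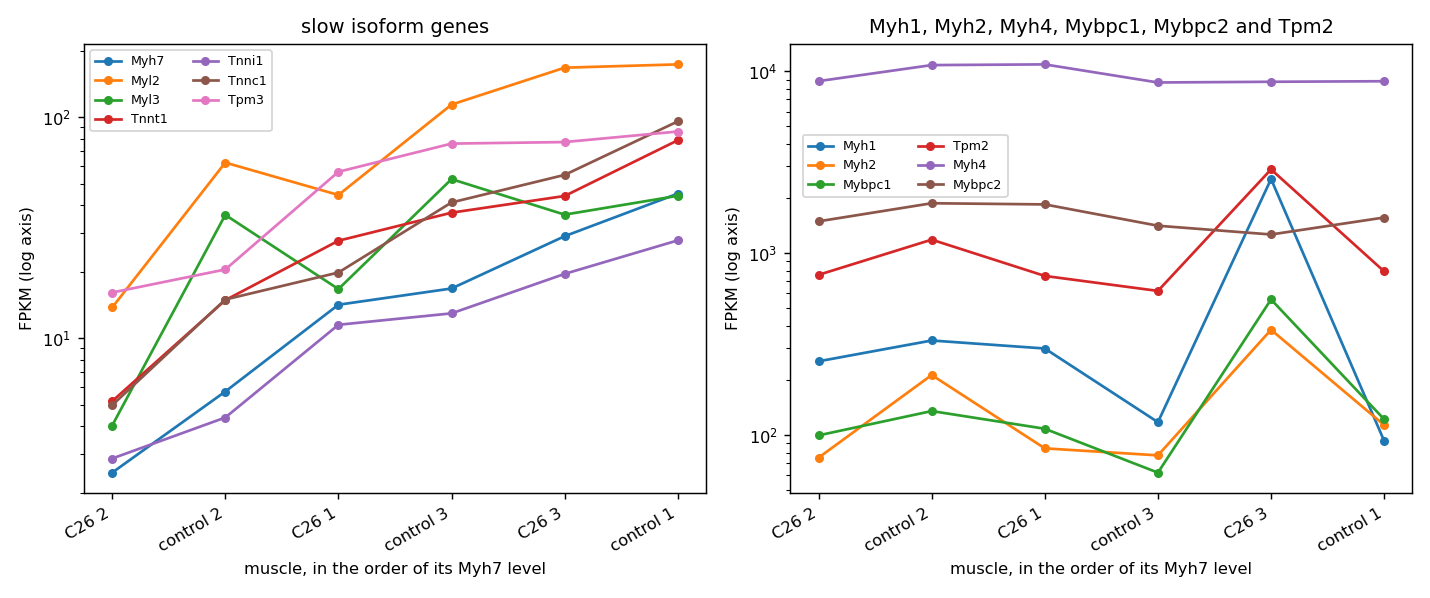
FPKM on log axes across the 6 muscles, ordered by Myh7, for 7 of the 12 slow isoform genes, Myh7, Myl2, Myl3, Tnnt1, Tnni1, Tnnc1 and Tpm3 (left), and for Myh1, Myh2, Myh4, Mybpc1, Mybpc2 and Tpm2 (right), with lines joining the values of a gene. Most of the slow genes drawn rise from C26 replicate 2 to control replicate 1 across both groups, and Myh1, Myh2, Mybpc1 and Tpm2 peak in C26 replicate 3.

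The non-muscle isoforms belong to the actomyosin of other cells and of the cell cortex. Myh14, a non-muscle myosin heavy chain that muscle also expresses, had 41.0, 37.6 and 27.5 FPKM in C26 and 8.54, 12.2 and 7.78 in control muscles. It rose without overlap (log2 fold change 2.04, SE 0.25, adjusted p = 0.00426). Of the other 5 non-muscle or smooth muscle genes, 4 fell. Myl9, the smooth muscle regulatory light chain, had 10.6, 9.15 and 17.2 FPKM against 48.2, 30.1 and 37.8 (-1.42, SE 0.29, adjusted p = 0.0140). Tpm4 had 6.21, 6.12 and 6.35 against 19.3, 10.5 and 28.8 (-1.25, SE 0.29, adjusted p = 0.0213), and lost its call without C26 replicate 1 or 2 or control replicate 1. Myl9 lost its call without C26 replicate 1 or control replicate 1. In both genes the groups did not overlap, and the 3 C26 muscles held nearly the same level of Tpm4.

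Myl6, the essential light chain of non-muscle and smooth muscle myosin, had 106, 90.3 and 164 FPKM in C26 and 290, 190 and 298 in control muscles (-0.91, SE 0.28, adjusted p = 0.0493). This call was lost at a pseudocount of 0.1 (adjusted p = 0.0571) and after the length and GC correction (0.0587), and it held in 1 of the 6 fits without 1 muscle. Myl12b, a non-muscle regulatory light chain, had 9.60, 9.45 and 6.34 FPKM against 24.6, 15.9 and 67.0 (-1.56, SE 0.46, adjusted p = 0.0408). The highest control, replicate 3, was also the sample with the most immune markers. C26 replicate 2, next with 284 FPKM of those markers, had only 9.45 FPKM of Myl12b. With TPM left without TMM scaling (adjusted p = 0.0560) or the replicate number as a block (0.0809), Myl12b was not called, and it was called in 2 of the 6 fits without 1 muscle. Its near copy Myl12a had 213 to 309 FPKM in C26 against 211 to 221 in control muscles (0.44, SE 0.17, adjusted p = 0.0829). Of the windows of Myl12a 29.6% and of Myl12b 11.4% occur in another gene, mainly in each other, and of Myl6 46.5% occur elsewhere, so these levels are uncertain.

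Several lists of markers of other cells were also lower in C26. None of the 13363 genes was at 0 in any sample, so a gene that is off in a sample may be missing from the values. The summed FPKM of 10 fibroblast markers was 292 to 476 in C26 and 750 to 1131 in control muscles, and 6 of 10 were called lower, beside 14.5% of all genes. For 10 smooth muscle and pericyte markers the sums were 73.2 to 112 against 173 to 234, with 3 called lower. For 10 endothelial markers they were 77.7 to 84.7 against 98.2 to 154, with 3 called lower, and for 10 adipocyte markers 262 to 399 against 628 to 4915, with 8 called lower. The 7 immune markers listed overlapped, at 32.0 to 284 against 37.1 to 499. Schwann cell markers had 24.2 to 50.4 against 50.2 to 135, and satellite cell markers 40.8 to 58.8 against 41.4 to 47.1. None of the fibroblast, smooth muscle, endothelial or adipocyte lists overlapped between the groups in its sum. These lists were lower in C26, as were Myl9, Myl12b, Tpm4 and Myl6. Among controls, replicate 3 was lowest for the fibroblast, smooth muscle and adipocyte sums, but highest for Myl12b, Tpm4 and Myl6. For the endothelial sum and Myl9 it was neither. The part of other cells in those changes was not tested.

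Of 13 other genes of fast fibers, 8 fell and 0 rose, beside 14.5% and 19.4% of all genes, with a median log2 fold change of -1.57. Casq1, the calcium store of the fast sarcoplasmic reticulum, fell from 2020.3 ± 132 to 145 ± 140 FPKM (-4.13, adjusted p = 0.0115). Sypl2, a triad protein, fell from 159 ± 27.4 to 14.7 ± 15.3 (-3.62, adjusted p = 0.0116), Mss51 by -3.13 (adjusted p = 0.0460) and the glycolytic link enzyme Gpd1 by -2.69 (adjusted p = 0.0130). The count of 8 was 2 without C26 replicate 1, 3, 4 and 5 without control replicates 1, 2 and 3, and up to 10 in the other fits. Among all genes the lower calls were 5.01% without C26 replicate 1 and 5.43%, 10.49% and 14.66% without those controls. At an unadjusted p under 0.05, 0 of this list were higher. Of 13 other genes of slow fibers 1 rose and 0 fell (1 at an unadjusted p under 0.05), beside 19.4% and 14.5% of all genes. Ankrd2, a stretch-responsive titin partner, rose from 65.6 ± 38.2 to 444 ± 376 FPKM (2.74, adjusted p = 0.0283). The median of these slow-fiber genes was 0.34, and -0.19 without C26 replicate 3. No gene of this list was called higher without replicate 2 or 3 of either group, and 3 were called lower without C26 replicate 3.

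Among 32 regulators of fiber type, 8 rose and 6 fell, beside 19.4% and 14.5% of all genes, so the list was near the background. It had 2 lower genes without control replicate 1 and 3 without C26 replicate 1 or 2 or control replicate 2. Vgll2, a muscle cofactor of TEAD factors, rose from 17.3 ± 6.10 to 107 ± 26.5 FPKM (2.81, adjusted p = 0.00395). The nuclear receptor Nr4a3 rose from 0.603 ± 0.245 to 6.78 ± 2.07 (2.75, adjusted p = 0.00260). Mef2c, a MEF2 factor, fell from 51.7 ± 6.08 to 10.5 ± 11.8 (-2.55, adjusted p = 0.0360), with 24.1 FPKM in C26 replicate 3 and 4.48 and 3.02 in the other C26 muscles. Mafa, a large Maf factor, fell from 18.9 ± 5.60 to 3.04 ± 1.08 (-2.23, adjusted p = 0.00605).

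Among genes for filament length and anchoring, Lmod2, which lets thin filaments grow, rose from 13.1 ± 5.38 to 147 ± 90.1 FPKM (3.48, adjusted p = 0.00960). Tmod4, the cap of the thin filament in fast fibers, fell from 488 ± 13.7 to 181 ± 102 (-1.37, adjusted p = 0.0485), a call that was lost in 5 of the 6 fits without 1 muscle. Among 16 genes for myosin folding and sarcomere turnover 6 rose and 0 fell (1 at an unadjusted p under 0.05), beside 19.4% and 14.5% of all genes. It was 3 higher without C26 replicate 1 and 2 without control replicate 1, beside 8.43% and 8.61% of all genes. The ubiquitin ligases Trim63, whose known targets include thick filament proteins, and Fbxo32 rose (log2 fold changes 4.89 and 4.36, adjusted p = 0.000822 and 0.00116). The chaperones Hspb1 and Hspa8 rose by 2.59 and 0.87 (adjusted p = 0.0163 and 0.0438), and C26 replicate 2 was highest in both.

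Of 12 listed genes tied to denervation and regeneration, out of 15, 1 rose and 2 fell, beside 19.4% and 14.5% of all genes. Gadd45a rose from 18.8 ± 1.59 to 76.7 ± 12.9 FPKM (2.19, adjusted p = 0.00188). Chrne, the adult acetylcholine receptor subunit, fell from 17.6 ± 2.40 to 2.66 ± 1.67 (-2.40, adjusted p = 0.00799), and the myogenic factor Myod1 from 14.8 ± 1.44 to 2.91 ± 1.49 (-2.05, adjusted p = 0.0108). Among 12 other non-muscle actomyosin genes Myo18b rose (1.78, adjusted p = 0.00516) and Actn4 fell (-0.65, adjusted p = 0.0334). With TPM left unscaled 2 of that list were lower.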

How the data were processed

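Total RNA of 6 gastrocnemius muscles was sequenced as single-end reads of 50 bases. The deposited FPKM values were made by the authors, who removed adaptor, low-quality and rRNA reads, aligned the rest and estimated expression by RSEM. The submitters' processing notes name HISAT2 2.0.4, Bowtie2 2.2.5, RSEM 1.2.12 and the build mm9, while the study's methods name a build of GRCm38, so the build behind the FPKM is uncertain. The labels' extraction note also names infected THP-1 cells, a human line, beside the frozen muscle. Depth per sample is unknown, since only FPKM were analysed and low values show no steps of whole reads, so precision is judged from how far the 3 samples of each group differ.

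Gene symbols were matched for 13327 of 13363 Entrez IDs. FPKM were rescaled to TPM and divided by TMM factors (0.903 to 1.08, with 30% of log ratios and 5% of levels trimmed), and log2 values were taken after adding 1. Groups came from the sample labels. They were compared with limma 3.58.1 (R 4.3.3, empirical Bayes, Benjamini-Hochberg adjustment over all genes), and the fit was tested on simulated data. Ratios and shares were compared with two-sided exact permutation tests. Every one of the 40 members is named. Values per sample are given for the sarcomeric heavy chains, the called members and the genes of the 9 slow and fast pairs, and up to 4 called genes are named of each other list by size of change, except 1 gene that is not reported here. The members and all lists were chosen with earlier results of these data known, so their counts are descriptions. Windows of 50 bases were compared among GENCODE transcripts of GRCm38, and promoters came from RefSeq. Python 3.11.15, pandas 2.3.3, numpy 2.4.6, scipy 1.17.1 and matplotlib 3.10.9 were used.

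The alternatives were FPKM as deposited, quantile normalization, TPM without TMM, TMM without the 40 genes, a pseudocount of 0.1, a filter on mean TPM of 1, an intensity trend in the prior variance, blocking on the replicate number, 1 TPM or 1 FPKM added to ratios, shares of the adult heavy chains alone and leaving out each muscle. A correction for transcript length and GC content, and leaving out replicate 3 of both groups together, were chosen after seeing the data.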

Additional observations from a re-analysis of the deposited data

How the results depend on the processing

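Depth is unknown and 3 muscles a group allow no permutation p under 0.1. The replicate numbers did not pair the samples: deviations of same-numbered muscles correlated at -0.039, -0.084 and -0.112. With the replicate number as a block, 9 members were lower and 2 higher, and Mylk2, Mylk4 and Myl12b lost their calls, beside 9.25% of all genes lower and 13.77% higher. FPKM as deposited moved the median of all genes to -0.145 and gave 1678 genes higher and 2504 lower, against 2587 and 1932 after scaling. It gave 15 members lower and 3 higher, beside 18.74% and 12.56% of all genes, with 0 higher and 5 lower at a fold above 4, and turned Mybpc2 (-0.084) and Myl4 (-0.13). Quantile normalization gave 0 higher at a fold above 4 and turned Myh2 (-0.073), Mybpc2 (-0.12), Myl4 (-0.0039), Tnnt3 (0.19), Tnni2 (0.71) and Tnnt2 (0.056). Replicate 3 of both groups left out gave 14 members lower and 3 higher, beside 23.83% and 25.15% of all genes, with 1 higher and 8 lower at a fold above 4, and turned Myh2 (-0.83), Myh6 (-0.30), Myh7b (-0.30), Mybpc1 (-0.18), Myl4 (-0.16) and Tpm2 (-0.23). TPM without TMM gave 2 lower genes among other non-muscle actomyosin. The cause of these moves was not tested. A mean TPM of at least 1 left 36 members, with 3 higher and 11 lower.

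Leaving out 1 muscle at a time gave 4 to 12 members lower, beside 5.01% to 17.62% of all genes, and 0 to 2 higher and 2 to 7 lower at a fold above 4. Lower calls ranged from 2 to 4 for fast isoforms, 0 to 1 for slow isoforms, 1 to 3 for shared proteins (higher 1 to 2), 0 to 3 for non-muscle isoforms, 2 to 10 for other fast-fiber genes, 0 to 3 for other slow-fiber genes (higher 0 to 2), 2 to 8 for regulators, 0 to 2 for filament length (higher 1 to 3), 0 to 1 for folding and turnover (higher 2 to 6) and 0 to 3 for other actomyosin (higher 1 to 2). Higher calls for denervation genes ranged from 1 to 2. Median log2 fold changes ranged from -0.98 to 0.35 for slow isoforms, -0.21 to 0.26 for developmental isoforms, -0.19 to 0.67 for other slow-fiber genes, -0.48 to 0.29 for shared proteins, -1.28 to -0.90 for non-muscle isoforms, 0.12 to 0.54 for regulators, 0.12 to 0.40 for folding and turnover, -0.28 to 0.033 for denervation genes, -0.77 to -0.44 for other actomyosin and -0.34 to -0.070 for satellite cell markers. The log2 fold change of uncalled members crossed 0 for Myh2 (-0.45 to 0.80), Mybpc2 (-0.0079 to 0.31), Myh7 (-1.18 to 0.53), Myh6 (-0.11 to 0.55), Myh7b (-0.21 to 0.48), Tnnt1 (-1.32 to 0.23), Tnni1 (-0.78 to 0.57), Tnnc1 (-1.72 to 0.0064), Tpm3 (-0.67 to 0.61), Myl4 (-0.21 to 0.49) and Tnnt2 (-0.66 to 0.10). The slow to fast difference crossed 0 for heavy chains (-1.71 to 0.066), the essential light chain (-0.23 to 0.79), troponin T (-1.01 to 0.47), troponin I (-0.62 to 0.76), troponin C (-0.18 to 1.14) and myosin binding protein C (-0.006 to 1.45). The difference in heavy chain share in percentage points did so for Myh2 (-0.551 to 0.693), Myh3 (-0.0002 to 0.0038), Myh6 (-0.0013 to 0.0025), Myh7 (-0.21 to 0.0134) and Myh7b (-0.0016 to 0.0023).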
